A study of Mus musculus with 18 samples.

Results

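The collagen genes measured in sorted mouse epidermal cells are described here. Members were the genes whose symbol reads Col, digits, a and digits, and 44 of 52636 genes in the count table matched. The cells were sorted as EpCAM+ after exclusion of cells carrying CD45 (leukocytes), CD140a (the PDGF receptor alpha of fibroblasts) and CD31 (endothelium), and their RNA was sequenced. The source named in the labels is whole skin, while the study describes sorted cells from mock skin, from carcinogen-treated skin beside tumors and from papillomas. The labels call the treated cells tumoral keratinocytes, and they are called treated here.

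The groups were 2 genotypes at 3 stages. All mice were C57BL/6 and carried Zfp36 alleles flanked by loxP sites (Zfp36 fl/fl, below fl/fl). In Zfp36 ΔK14 littermates (below ΔK14) these alleles were deleted by a Cre recombinase under the human keratin 14 promoter, which is active in basal keratinocytes. Zfp36 encodes tristetraprolin, a protein that binds AU-rich elements of mRNAs and speeds their decay. Mock mice were mock-treated on the skin. Treated and tumor cells came from mice given the mutagen DMBA and the tumor-promoting phorbol ester TPA on the skin, and papillomas were digested with collagenase. Each group held 3 columns, but the columns of mock ΔK14 replicates 2 and 3 were identical in all 52636 genes and were counted as 1 library, so n = 2 in that group and 17 libraries remained. The labels do not say which libraries came from the same animal, and the p-values measure only the spread between these libraries, which may be technical.

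Collagens are secreted or membrane-bound proteins with a helix of wound chains. Keratinocytes make the collagens that fasten the epidermis to its basement membrane, among them collagen XVII of hemidesmosomes, collagen VII of anchoring fibrils and the α5 and α6 chains of collagen IV. Dermal fibroblasts make the fibril-forming collagens I, III and V, the beaded filaments of collagen VI and much of collagen XIV. Members were therefore divided, from textbook knowledge, into 5 epithelial genes (Col17a1, Col7a1, Col23a1, Col4a5 and Col4a6), 9 fibroblast-like genes (Col1a1, Col1a2, Col3a1, Col5a1, Col5a2, Col6a1, Col6a2, Col6a3 and Col14a1), 6 basement membrane genes that several cell types share (Col4a1 to Col4a4, Col15a1 and Col18a1) and 24 others.

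The promoters of the epithelial genes, and of the shared gene Col18a1, are shown first because each of these genes was called between tumor and treated cells in at least 1 genotype. They are from RefSeq on GRCm38.p6 and run from 250 bases before to 50 bases after an annotated start. Capitals mark a GC box (GGGCGG) or a TATA box (TATAAA), searched on both strands. The window of Col17a1 is chr19:47691993-47692292 on the minus strand and holds 2 TATA boxes, 140 and 91 bases before the start. The window of Col7a1 is chr9:108953336-108953635 on the plus strand, with a GC box 61 bases before the start. That of Col23a1 is chr11:51289670-51289969 on the plus strand, with a GC box 11 bases before the start.
Col17a1: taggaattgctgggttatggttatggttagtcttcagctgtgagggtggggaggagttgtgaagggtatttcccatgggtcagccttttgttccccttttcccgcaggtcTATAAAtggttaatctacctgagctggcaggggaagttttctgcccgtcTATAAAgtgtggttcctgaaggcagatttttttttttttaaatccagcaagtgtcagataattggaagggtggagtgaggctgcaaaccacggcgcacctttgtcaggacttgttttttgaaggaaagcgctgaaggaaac
Col7a1: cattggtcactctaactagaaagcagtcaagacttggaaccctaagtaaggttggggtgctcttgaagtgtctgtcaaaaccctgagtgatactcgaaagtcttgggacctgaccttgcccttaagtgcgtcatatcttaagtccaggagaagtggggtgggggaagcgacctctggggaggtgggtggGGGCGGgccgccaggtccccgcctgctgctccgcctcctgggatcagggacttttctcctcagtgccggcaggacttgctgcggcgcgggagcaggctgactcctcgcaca
Col23a1: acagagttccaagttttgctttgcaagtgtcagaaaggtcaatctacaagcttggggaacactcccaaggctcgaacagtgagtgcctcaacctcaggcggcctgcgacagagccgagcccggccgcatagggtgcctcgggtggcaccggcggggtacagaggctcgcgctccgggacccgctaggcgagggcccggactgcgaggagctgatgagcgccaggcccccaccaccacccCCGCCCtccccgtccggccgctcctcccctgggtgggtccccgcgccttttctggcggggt

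Col4a6 and Col4a5 lie head to head on chromosome X, with starts 1343 bases apart on opposite strands. Their windows are chrX:141474027-141474326 on the minus strand and chrX:141475169-141475468 on the plus strand, and each holds 1 GC box. Col18a1 has more than 1 annotated start, and its window at chr10:77166481-77166780 on the minus strand holds 3 GC boxes, while the window at chr10:77113656-77113955 holds none of these motifs.
Col4a6: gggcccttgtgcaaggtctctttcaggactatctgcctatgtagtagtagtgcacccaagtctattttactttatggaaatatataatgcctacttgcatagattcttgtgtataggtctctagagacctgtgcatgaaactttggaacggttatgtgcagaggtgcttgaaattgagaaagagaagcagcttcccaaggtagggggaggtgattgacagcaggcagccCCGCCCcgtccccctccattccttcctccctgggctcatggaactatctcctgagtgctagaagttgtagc
Col4a5: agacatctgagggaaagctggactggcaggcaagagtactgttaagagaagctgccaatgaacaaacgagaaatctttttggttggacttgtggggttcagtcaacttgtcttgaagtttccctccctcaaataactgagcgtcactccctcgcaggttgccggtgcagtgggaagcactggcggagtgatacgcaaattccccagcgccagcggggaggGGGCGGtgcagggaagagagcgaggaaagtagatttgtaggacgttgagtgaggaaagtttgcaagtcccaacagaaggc
Col18a1: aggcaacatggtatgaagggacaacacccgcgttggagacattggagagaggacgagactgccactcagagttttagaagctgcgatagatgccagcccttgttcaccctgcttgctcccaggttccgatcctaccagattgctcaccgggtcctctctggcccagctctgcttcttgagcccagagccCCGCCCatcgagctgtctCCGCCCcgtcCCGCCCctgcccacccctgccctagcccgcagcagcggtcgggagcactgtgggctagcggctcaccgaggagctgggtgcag

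In all, 35 members had 38 promoters in the RefSeq table. A GC box was found in 23 of the 38, against 35.7% of 32851 promoters, and a TATA box in 5, against 13.6%. The AP-1 motif TGANTCA was found in 1 (Col6a1), against 7.81%. These matches are a description of the letters and not of binding.

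Library totals ran from 2808550 to 9617985 counts. Zfp36 had a mean of 497 CPM (read counts scaled to a common library size after TMM) in fl/fl and 27.9 CPM in ΔK14 mock cells, 376 and 23.9 CPM in treated cells and 217 and 13.8 CPM in tumors. The genotypes did not overlap at any stage, and the difference passed edgeR's quasi-likelihood test in treated cells (adjusted p = 0.0391) and tumors (0.00882) but not in mock cells (1). Some libraries stood apart from their group. Replicate 1 of both mock groups held 604 and 671 CPM of Krt14 (a basal keratin), against 4230 to 4982 CPM in the other mock libraries, and 845 and 976 CPM of Dcn (decorin, a fibroblast proteoglycan), against 47.1 to 97.2 CPM. Replicate 1 of the fl/fl tumors was the smallest library. It held 15693 CPM of Krt14, against 3870.1 and 4164 CPM in the other fl/fl tumors, and had 16 members at 0 counts, against 1 to 8 in the other libraries. Calls that were lost or gained without 1 of these 3 libraries are named with the comparison they belong to.

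Of the 44 members, 23 reached 10 CPM in some library, 17 had their highest value between 1 and 10 CPM and 4 stayed under 1 CPM. A count of 0 allows up to 3 counts, which is 0.289 to 1.503 CPM over these libraries, and 20 members had no count in at least 1 library. In the tests, 33 members passed the low-count filter of at least 1 comparison, 21 of these were called in at least 1 (a fold change above 2 with an adjusted p below 0.05) and 12 in none, while 11 never entered a test. The 12 that were tested but never called were Col10a1, Col11a2, Col20a1, Col27a1, Col4a1, Col4a3, Col5a1, Col5a3, Col6a1, Col6a2, Col6a6 and Col9a3. The 11 outside every test, all with at most 3.09 CPM, were Col11a1, Col13a1, Col22a1, Col24a1, Col25a1, Col26a1, Col28a1, Col2a1, Col6a5, Col9a1 and Col9a2.

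Col17a1 was the leading collagen per length in each of the 17 libraries. On the scale of CPM per kb of exons, its mean level was 352 in fl/fl and 157 in ΔK14 mock cells, 133 and 79.4 in treated cells, and 176 and 356 in tumors. The 5 epithelial genes together made up 33.4% to 85.1% of the summed collagen CPM per kb of a library, and the 9 fibroblast-like genes 0.945% to 42.3%. In ΔK14 tumors the next levels per length were those of Col18a1 (94.9 ± 36.6 CPM per kb; SD, n = 3), Col12a1 (35.0 ± 5.79), Col7a1 (28.8 ± 15.1), Col23a1 (22.0 ± 5.25) and Col1a1 (17.6 ± 13.5). From Col12a1 on, the ranges of mean ± SD of neighbors in this order overlapped. In fl/fl tumors Col17a1 (176 ± 164 CPM per kb; SD, n = 3) and Col18a1 (27.4 ± 24.4) were followed by Col23a1 (16.1 ± 3.76), Col1a1 (10.3 ± 3.70), Col7a1 (9.97 ± 4.82) and Col12a1 (9.83 ± 3.37). Col17a1 was above Col18a1 in each of these libraries, and from Col18a1 on, the ranges of mean ± SD of neighbors overlapped here too.

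**Figure D1:**
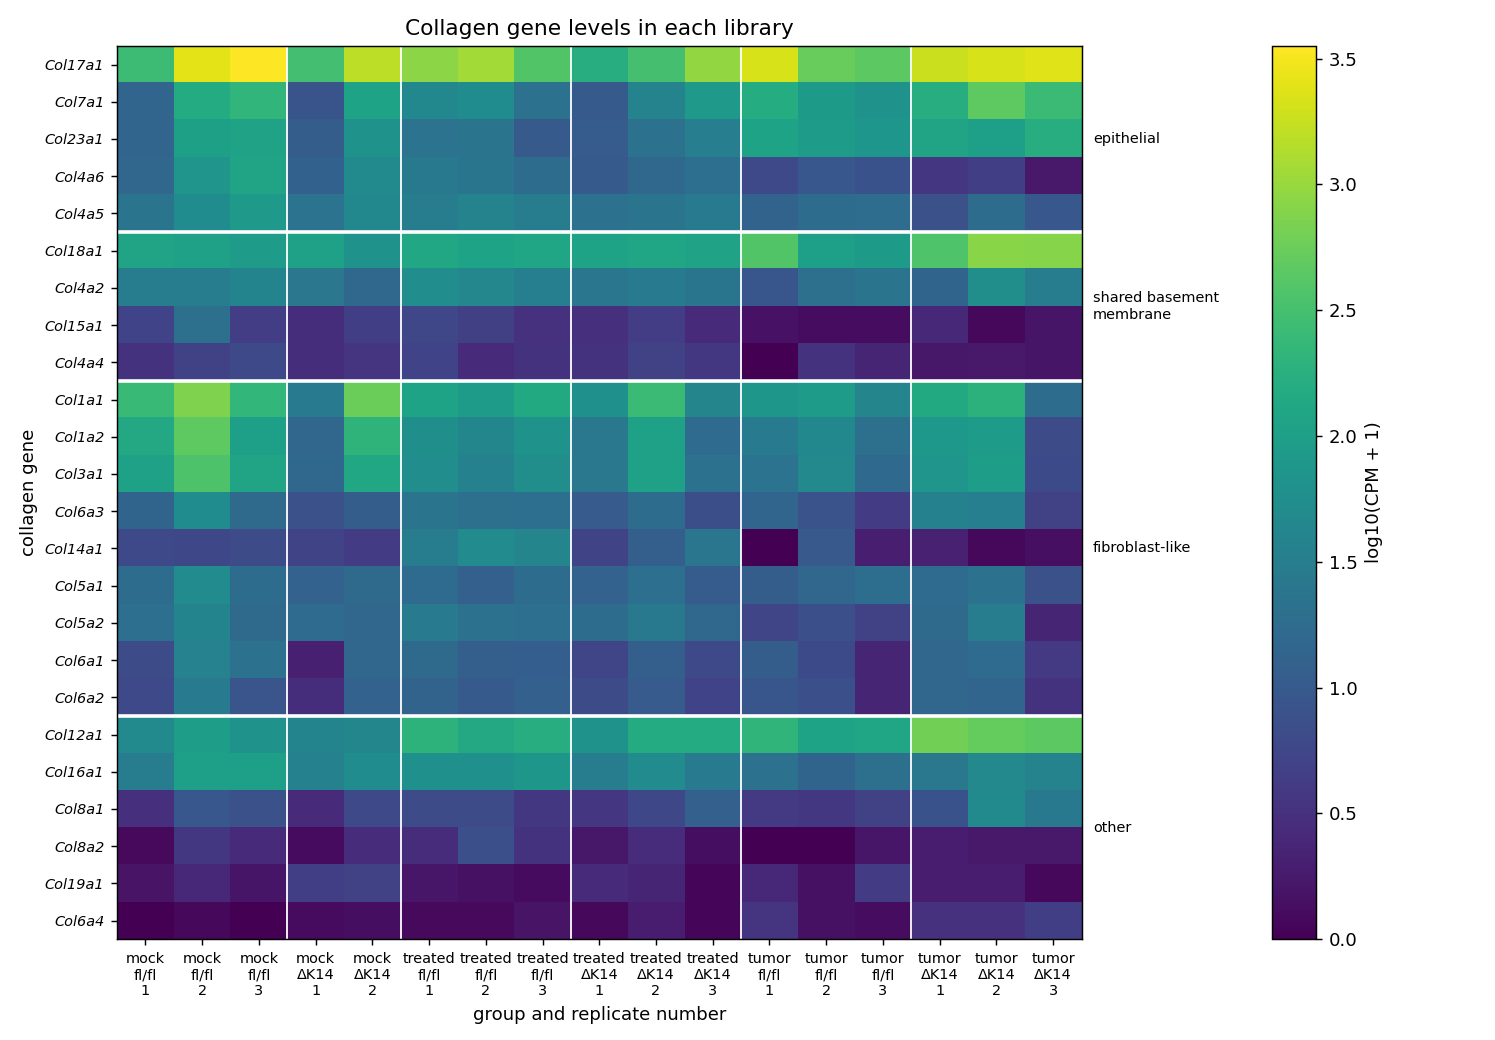
Levels of 24 collagen genes in the 17 libraries, as log10(CPM + 1), grouped by class and by stage and genotype. Each cell is 1 gene in 1 library, and Col17a1 holds the highest value among the epithelial genes in every library.

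The epithelial collagens of tumors were compared with those of treated cells, within each genotype, to show what differed between papilloma cells and the treated skin beside them. In ΔK14 cells all 5 epithelial genes were called: Col17a1, Col7a1 and Col23a1 rose and Col4a5 and Col4a6 fell. In fl/fl cells Col7a1 and Col23a1 rose, Col4a5 and Col4a6 fell, and Col17a1 was not called. Over all collagens, 7 rose and 4 fell of 26 tested in ΔK14 cells, where 26% of all genes tested were called, 10.5% higher and 15.5% lower. In fl/fl cells 2 rose and 9 fell of 27 tested, where 18% of all genes were called, 7.5% higher and 10.5% lower. The median log2 fold change of the collagens tested was 0.04 in ΔK14 cells, against −0.03 over all genes, and −0.87 in fl/fl cells, against −0.02. Values did not overlap between tumor and treated cells for 6 collagens in each direction in ΔK14, where this held for 28.4% of all genes in the higher and 23.8% in the lower direction, and for 2 in the higher and 12 in the lower direction in fl/fl (21.9% and 24% of all genes). Of the 11 called in each genotype, 5 were called in both with the same direction (Col14a1, Col23a1, Col4a5, Col4a6 and Col7a1), which is 45.5% of each list. The share of all genes called in both genotypes was not computed, so whether this overlap is particular to collagens was not tested.

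Col17a1 (ENSMUSG00000025064, chromosome 19, 47646344 to 47692094, minus strand, GRCm38) encodes a transmembrane collagen of hemidesmosomes, which hold basal keratinocytes to the basement membrane. In mock skin, Col17a1 stood at 274, 2515 and 3551 CPM in fl/fl and 308 and 1574 CPM in ΔK14 (values in order of replicate). In treated cells it stood at 849.7, 1156 and 389 CPM in fl/fl and 162, 316 and 954 CPM in ΔK14. Tumors held 2196, 525 and 446 CPM in fl/fl and 1851, 2192 and 2376 CPM in ΔK14. Every ΔK14 tumor was above every treated ΔK14 library, and fl/fl tumor replicate 1 stood far above the other two, which lay among the treated libraries. The log2 fold change of tumor over treated cells was 2.09 (SE 0.54, edgeR adjusted p = 0.017) in ΔK14. It was 0.37 (SE 0.63, edgeR adjusted p = 0.688) in fl/fl. The call in ΔK14 was lost without treated ΔK14 replicate 2 (edgeR adjusted p = 0.0683) or tumor ΔK14 replicate 3 (0.0541), and without treated ΔK14 replicate 3 the log2 fold change was 3.06.

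Col7a1 (ENSMUSG00000025650, chromosome 9, 108953586 to 108984875, plus strand, GRCm38) encodes the anchoring fibrils that tie the basement membrane to the dermis. In mock skin, Col7a1 measured 13.3, 154 and 217 CPM in fl/fl and 7.31 and 115 CPM in ΔK14. In treated cells it measured 44.9, 52.2 and 20.9 CPM in fl/fl and 9.15, 37.5 and 82.7 CPM in ΔK14. Tumors measured 159, 84.8 and 64.2 CPM in fl/fl and 161, 466 and 262 CPM in ΔK14. Tumor values lay above the treated values without overlap in each genotype, and replicate 1 of both mock groups was low again. The log2 fold change of tumor over treated cells was 2.69 (SE 0.68, edgeR adjusted p = 0.0149) in ΔK14 and 1.35 (SE 0.41, edgeR adjusted p = 0.0469) in fl/fl. In fl/fl the call was lost whichever library was left out, with edgeR adjusted p from 0.0545 (without fl/fl tumor replicate 3) to 0.123 (without treated fl/fl replicate 3). In ΔK14 it was lost without treated ΔK14 replicate 2 (edgeR adjusted p = 0.061), and without replicate 3 the log2 fold change was 3.54.

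Col23a1 (ENSMUSG00000063564, chromosome 11, 51289920 to 51583918, plus strand, GRCm38) encodes another transmembrane collagen of epithelial cells. In mock skin, Col23a1 was counted at 13.4, 104 and 109 CPM in fl/fl and 10.3 and 63.8 CPM in ΔK14. In treated cells it was counted at 21.8, 22.1 and 9.28 CPM in fl/fl and 9.69, 19.8 and 31.95 CPM in ΔK14. Tumors were counted at 115, 91.2 and 71.8 CPM in fl/fl and 118, 101 and 159.8 CPM in ΔK14. All 6 tumors were above all 6 treated libraries. The log2 fold change of tumor over treated cells was 2.36 (SE 0.35, edgeR adjusted p = 0.0045) in fl/fl and 2.53 (SE 0.38, edgeR adjusted p = 0.00202) in ΔK14, and both calls were kept whichever library was left out.

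Col4a5 and Col4a6 (chromosome X, 141475385 to 141689234, plus strand, and 141165403 to 141474076, minus strand, GRCm38; ENSMUSG00000031274 and ENSMUSG00000031273) encode chains of the collagen IV network in epithelial basement membranes. In mock skin, Col4a5 reached 22.4, 52.8 and 82.2 CPM in fl/fl and 21.4 and 45.1 CPM in ΔK14. In treated cells Col4a5 reached 30.1, 37.9 and 30.99 CPM in fl/fl and 20.6, 22.5 and 26.9 CPM in ΔK14. Tumors reached 12.5, 17.1 and 17.7 CPM in fl/fl and 6.49, 17.2 and 8.17 CPM in ΔK14 for Col4a5. All 6 tumors lay below all 6 treated libraries. The neighbor Col4a6 reached 13.9, 69.3 and 119 CPM in fl/fl and 11.6 and 47.2 CPM in ΔK14 in mock skin. In treated cells Col4a6 reached 26.3, 23.03 and 17.1 CPM in fl/fl and 8.97, 14.9 and 19.1 CPM in ΔK14, and in tumors it reached 5.02, 8.09 and 6.88 CPM in fl/fl and 2.68, 3.63 and 0.760 CPM in ΔK14. Col4a6, too, was lower in all 6 tumors than in all 6 treated libraries. The log2 fold change of tumor over treated cells was −1.72 (SE 0.29, edgeR adjusted p = 0.00669) for Col4a6 in fl/fl and −2.68 (SE 0.50, edgeR adjusted p = 0.00452) in ΔK14, kept whichever library was left out. For Col4a5 it was −1.07 (SE 0.22, edgeR adjusted p = 0.0138) in fl/fl and −1.22 (SE 0.34, edgeR adjusted p = 0.0238) in ΔK14. The Col4a5 call in fl/fl was lost without treated fl/fl replicate 1 (edgeR adjusted p = 0.0573) or 2 (0.0648), and without fl/fl tumor replicate 1 it stayed significant (0.00613) with a fold under 2. In ΔK14 it was lost without treated ΔK14 replicate 2 (edgeR adjusted p = 0.0683) or ΔK14 tumor replicate 1 (0.0693) or 3 (0.105). In these bulk samples, fewer cells of a type and less RNA per cell cannot be told apart, for these and the other members.

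The level of the basal keratin Krt14 moved with part of this pattern. Krt14 rose from 974, 2494 and 5335 CPM in treated ΔK14 cells to 10982, 11329 and 11548 CPM in ΔK14 tumors (log2 fold change 1.86, edgeR adjusted p = 0.021). In fl/fl it stood at 2360.4, 3361 and 1563 CPM in treated cells and 15693, 3870.1 and 4164 CPM in tumors and was not called (1.68, edgeR adjusted p = 0.0669). Of 6 epithelial markers tested, 4 rose and 1 fell in ΔK14 tumors against treated cells (10.5% and 15.5% of all genes did), and 2 rose in fl/fl (7.5% of all genes). The part of this difference in the collagen values was not tested.

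A single fit of all 17 libraries, which shares 1 estimate of the spread, made fewer of these calls. In ΔK14 it did not call Col17a1 (edgeR adjusted p = 0.0893), Col7a1 (0.0539) or Col4a5 (0.0719), and in fl/fl it did not call Col7a1 (0.318), Col4a5 (0.0977), Col4a6 (0.0861) or, of the genes described further on, Col6a3 (0.186). Col23a1 in both genotypes and Col4a6 in ΔK14 kept their calls in that fit.

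Without fl/fl tumor replicate 1, 14 collagens were called between tumor and treated fl/fl cells, where 24.3% of all genes were called. Col7a1 and Col4a5 were then not called. Col6a1 (−1.79, edgeR adjusted p = 0.0167), Col6a2 (−1.39, 0.0459), Col10a1 (−1.97, 0.0424), Col20a1 (1.08, 0.0488) and Col6a6 (edgeR adjusted p = 0.0158, with no count in tumors) were called in addition.

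**Figure D2:**
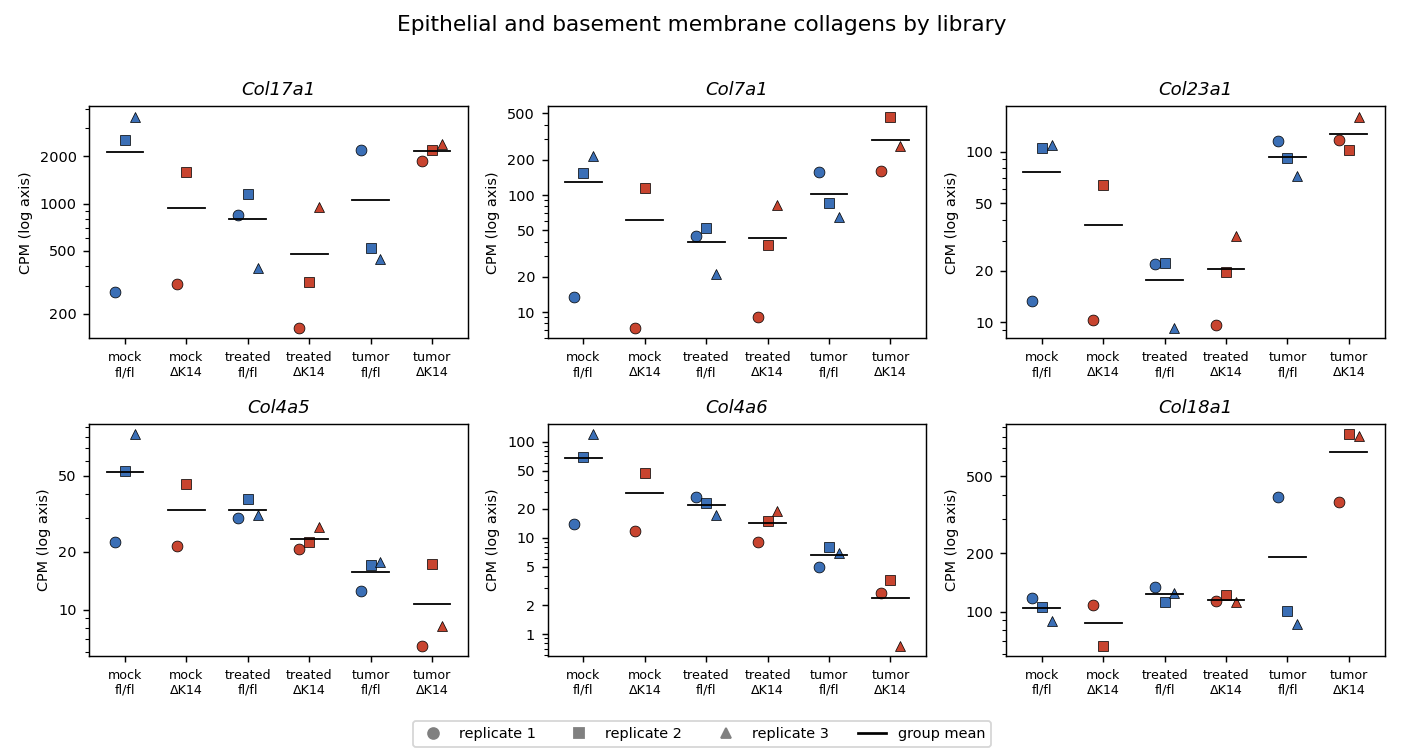
CPM (log axis) of Col17a1, Col7a1, Col23a1, Col4a5, Col4a6 and Col18a1 in each library, by stage and genotype, where blue is fl/fl, red is ΔK14, the marker shape gives the replicate and black lines are group means. Tumor values of Col23a1 lie above and those of Col4a5 and Col4a6 below all treated values in both genotypes, and replicate 1 of both mock groups is low for the epithelial genes.

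Among the shared basement membrane genes, Col18a1 (ENSMUSG00000001435, chromosome 10, 77052178 to 77166548, minus strand, GRCm38) rose in ΔK14 tumors. It encodes the core protein of a heparan sulfate proteoglycan of basement membranes, and its last part is released as endostatin. In mock skin, Col18a1 amounted to 117, 106 and 89.7 CPM in fl/fl and 108 and 66.7 CPM in ΔK14. In treated cells it amounted to 133, 112 and 125 CPM in fl/fl and 113, 121 and 112 CPM in ΔK14. Tumors amounted to 390.3, 101 and 85.9 CPM in fl/fl and 369, 824 and 805 CPM in ΔK14. The treated libraries lay close together, all ΔK14 tumors were above them, and among fl/fl tumors replicate 1 alone was above them. The log2 fold change of tumor over treated cells was 2.42 (SE 0.30, edgeR adjusted p = 0.000968) in ΔK14, kept whichever library was left out, and 0.59 (SE 0.53, edgeR adjusted p = 0.44) in fl/fl.

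The other shared genes were called in fewer comparisons. Col4a2, a main chain of collagen IV, showed 29.7, 29.9 and 38.4 CPM in fl/fl and 24.4 and 14.8 CPM in ΔK14 in mock skin. In treated cells Col4a2 showed 54.8, 43.4 and 33.6 CPM in fl/fl and 23.7, 28.98 and 22.99 CPM in ΔK14, and in tumors it showed 8.03, 19.7 and 21.96 CPM in fl/fl and 12.97, 55.9 and 30.97 CPM in ΔK14. The fl/fl tumors lay below the treated fl/fl libraries (log2 fold change −1.40, SE 0.37, edgeR adjusted p = 0.0291), while the ΔK14 groups overlapped. Its head-to-head partner Col4a1, whose start is 21 bases away on the other strand of chromosome 8, ran from 4.01 to 81.9 CPM over the libraries. At the stated settings Col4a1 was not called. The Col4a2 call was lost without treated fl/fl replicate 1 (edgeR adjusted p = 0.117), 2 (0.0771) or 3 (0.0574) or fl/fl tumor replicate 2 (0.0525) or 3 (0.0512). Col4a4, a chain of collagen IV in a few specialized membranes, showed 2.33, 3.93 and 5.12 CPM in fl/fl and 1.89 and 2.52 CPM in ΔK14 in mock skin. In treated cells Col4a4 showed 4.13, 1.75 and 2.35 CPM in fl/fl and 2.33, 3.79 and 2.71 CPM in ΔK14, and in tumors it showed 0, 2.29 and 1.31 CPM in fl/fl and 0.671, 0.726 and 0.570 CPM in ΔK14. It fell in ΔK14 tumors against treated cells (−2.24, SE 0.43, edgeR adjusted p = 0.00508) at these low levels, and kept the call whichever library was left out. Col15a1, a relative of Col18a1, showed 4.22, 19.6 and 3.38 CPM in fl/fl and 1.89 and 3.61 CPM in ΔK14 in mock skin. In treated cells Col15a1 showed 4.78, 3.73 and 2.22 CPM in fl/fl and 1.97, 3.39 and 1.69 CPM in ΔK14, and in tumors it showed 0.502, 0.305 and 0.328 CPM in fl/fl and 1.57, 0.182 and 0.570 CPM in ΔK14. With 4 counts in the 3 fl/fl tumors together against 78 in treated fl/fl cells, it was 10.5 times lower (95% exact interval 3.96 to 39.7, counting error only), and it was called (−3.31, SE 0.60, edgeR adjusted p = 0.00886). This call was lost without treated fl/fl replicate 1 (edgeR adjusted p = 0.0556).

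The fibroblast-like collagens were classed by their known source in dermal fibroblasts, and which cells held their RNA here was not tested. Col1a1 and Col1a2 encode the chains of collagen I and Col3a1 that of collagen III, the main fibril collagens of the dermis. In mock skin, Col1a1 came to 258, 727 and 227 CPM in fl/fl and 28.7 and 563 CPM in ΔK14. In treated cells Col1a1 came to 113, 87.1 and 141 CPM in fl/fl and 58.9, 259 and 40.4 CPM in ΔK14. Tumors came to 75.3, 87.5 and 40.6 CPM in fl/fl and 141, 189 and 17.1 CPM in ΔK14 for Col1a1. The spread within a group was large in ΔK14 cells, with mock ΔK14 replicate 1 and ΔK14 tumor replicate 3 far below the others of their groups. Col1a2 came to 139.5, 460.0 and 100.1 CPM in fl/fl and 13.8 and 202 CPM in ΔK14 in mock skin, to 57.7, 41.7 and 66.4 CPM in fl/fl and 25.3, 108 and 16.6 CPM in ΔK14 in treated cells and to 28.6, 43.98 and 19.7 CPM in fl/fl and 78.3, 86.9 and 5.51 CPM in ΔK14 in tumors. Col3a1 came to 106, 359 and 117 CPM in fl/fl and 14.6 and 134 CPM in ΔK14 in mock skin, to 54.8, 35.5 and 56.5 CPM in fl/fl and 25.3, 107 and 19.9 CPM in ΔK14 in treated cells and to 21.6, 46.3 and 15.4 CPM in fl/fl and 70.7, 93.3 and 5.32 CPM in ΔK14 in tumors. All 3 genes were highest in mock fl/fl replicate 2 and lowest in ΔK14 tumor replicate 3, and the ratio of Col1a1 to Col1a2 counts stayed between 1.58 and 3.10 in the 17 libraries. Mock fl/fl replicate 2 had the highest CPM of 8 of the 9 fibroblast-like genes, and ΔK14 tumor replicate 3 the lowest of 5.

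**Figure D3:**
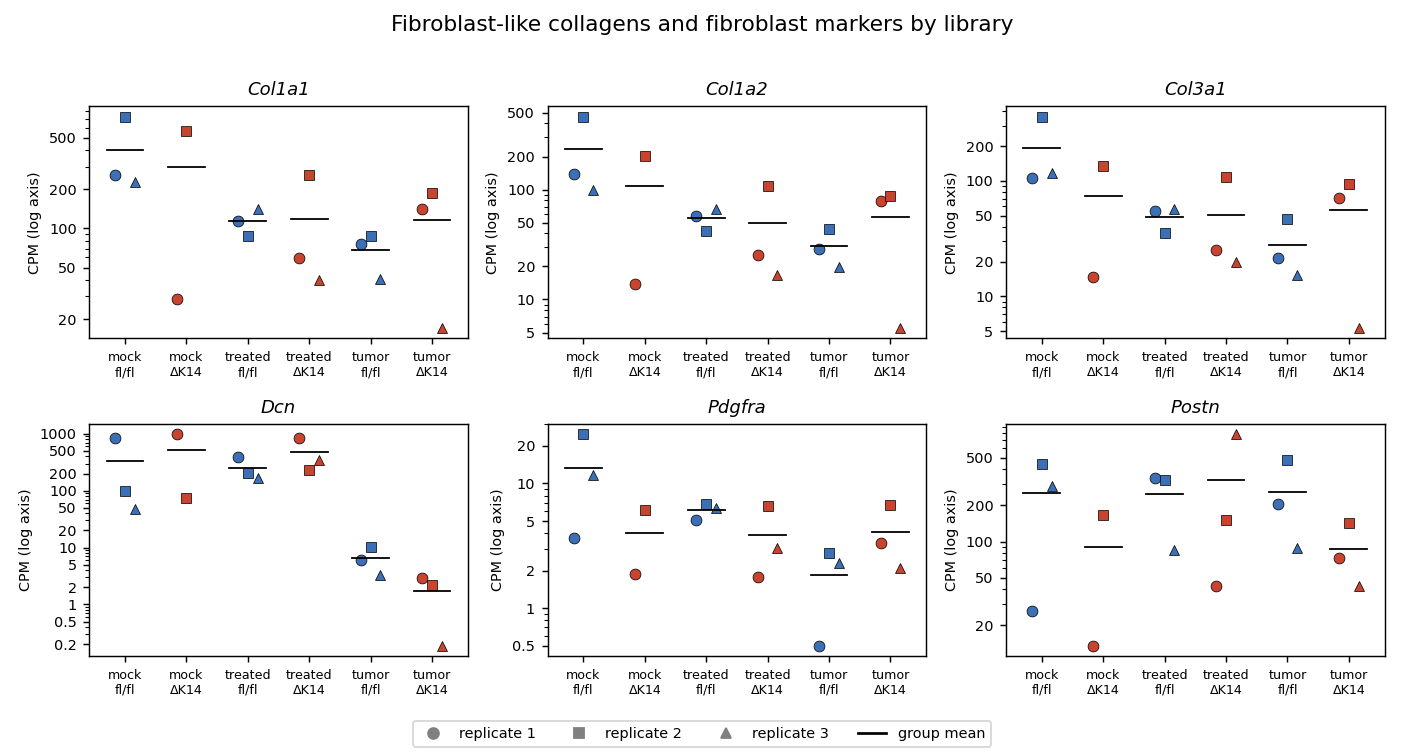
CPM (log axis) of Col1a1, Col1a2 and Col3a1 and of the fibroblast markers Dcn, Pdgfra and Postn in each library, with colors, shapes and lines as for the epithelial genes. Dcn is between 0.190 and 10.1 CPM in tumors and between 47.1 and 976 CPM elsewhere, while the collagens of tumors overlap with those of treated cells.

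Between tumor and treated cells, Col1a1, Col1a2 and Col3a1 were not called in either genotype. Their log2 fold changes were −0.79, −0.87 and −0.83 in fl/fl (edgeR adjusted p = 0.095, 0.0801 and 0.157) and −0.17, 0.06 and 0.03 in ΔK14 (0.893, 0.965 and 0.985). Without fl/fl tumor replicate 2, Col3a1 (−1.43, edgeR adjusted p = 0.027) and Col1a2 (−1.22, 0.037) were called lower in fl/fl tumors. Col5a1, a chain of the collagen V that sets the width of collagen I fibrils, lay at 17.2, 50.9 and 17.1 CPM in fl/fl and 11.9 and 15.9 CPM in ΔK14 in mock skin. In treated cells Col5a1 lay at 16.4, 11.2 and 17.1 CPM in fl/fl and 12.02, 18.5 and 9.81 CPM in ΔK14. Tumors lay at 10.03, 14.05 and 18.03 CPM in fl/fl and 16.3, 20.1 and 6.65 CPM in ΔK14 for Col5a1. At the stated settings Col5a1 was not called in any comparison. Its partner Col5a2 lay at 18.6, 39.1 and 15.9 CPM in fl/fl and 16.2 and 13.7 CPM in ΔK14 in mock skin. In treated cells Col5a2 lay at 27.7, 19.96 and 18.96 CPM in fl/fl and 17.2, 25.98 and 14.7 CPM in ΔK14, and in tumors it lay at 4.52, 6.41 and 3.93 CPM in fl/fl and 15.7, 31.2 and 1.33 CPM in ΔK14. Every fl/fl tumor was below every other fl/fl library for Col5a2, and it fell against treated fl/fl cells (−2.15, SE 0.30, edgeR adjusted p = 0.00367), whichever library was left out, but not in ΔK14 (−0.37, SE 0.74, edgeR adjusted p = 0.725).

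Col6a1, Col6a2 and Col6a3 encode the chains of collagen VI, which forms beaded filaments. Col6a3 gave 12.8, 53.03 and 15.7 CPM in fl/fl and 6.50 and 10.1 CPM in ΔK14 in mock skin, 22.6, 19.3 and 19.1 CPM in fl/fl and 9.33, 16.8 and 6.09 CPM in ΔK14 in treated cells and 13.5, 7.18 and 3.28 CPM in fl/fl and 35.6, 32.7 and 3.80 CPM in ΔK14 in tumors. The fl/fl tumors lay below the treated fl/fl libraries and Col6a3 fell there (−1.44, SE 0.42, edgeR adjusted p = 0.0418). That call was lost without treated fl/fl replicate 1 (edgeR adjusted p = 0.144), 2 (0.102) or 3 (0.106) or fl/fl tumor replicate 2 (0.109) or 3 (0.0919). Col6a1 gave 5.77, 36.1 and 20.5 CPM in fl/fl and 1.08 and 14.1 CPM in ΔK14 in mock skin, 15.96, 10.96 and 10.3 CPM in fl/fl and 4.49, 10.7 and 5.07 CPM in ΔK14 in treated cells and 10.03, 5.19 and 1.31 CPM in fl/fl and 13.6, 16.7 and 3.04 CPM in ΔK14 in tumors. Col6a2 gave 5.11, 27.1 and 7.64 CPM in fl/fl and 1.89 and 11.9 CPM in ΔK14 in mock skin, 12.6, 9.21 and 11.1 CPM in fl/fl and 5.38, 9.40 and 4.23 CPM in ΔK14 in treated cells and 8.03, 6.26 and 1.31 CPM in fl/fl and 13.6, 13.2 and 2.28 CPM in ΔK14 in tumors. Neither Col6a1 nor Col6a2 was called in any comparison at the stated settings, and mock fl/fl replicate 2 was highest for all 3 genes.

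Col14a1, a fibril-associated collagen, had another order of groups than Col1a1. In mock skin, Col14a1 read 4.99, 4.91 and 5.61 CPM in fl/fl and 4.33 and 3.24 CPM in ΔK14. In treated cells it read 30.7, 51.1 and 39.9 CPM in fl/fl and 4.31, 10.8 and 23.8 CPM in ΔK14. Tumors read 0, 8.86 and 0.983 CPM in fl/fl and 1.12, 0.182 and 0.380 CPM in ΔK14. It was highest in the 3 treated fl/fl libraries, and 5 of the 6 tumors were under 2 CPM. It fell in tumors against treated cells in ΔK14 (−4.63, SE 0.79, edgeR adjusted p = 0.00313), whichever library was left out, and in fl/fl (−3.32, SE 0.77, edgeR adjusted p = 0.0197). The fl/fl call was lost without treated fl/fl replicate 1 (edgeR adjusted p = 0.0652), 2 (0.0672) or 3 (0.0632) or fl/fl tumor replicate 3 (0.0598). Fl/fl tumor replicate 2 held 58 of the 61 counts of Col14a1 in the fl/fl tumors, and without it the log2 fold change was −6.06 (edgeR adjusted p = 0.0049). In ΔK14 it ran from −5.50 without ΔK14 tumor replicate 1 to −3.89 without treated ΔK14 replicate 3.

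Markers of other cells that such a sort could hold were read beside these values. The summed CPM of 10 fibroblast markers (Pdgfra, Pdgfrb, Dcn, Lum, Dpt, Mfap5, Fap, Twist2, Thy1 and Postn) was 415 to 894 in fl/fl and 321 to 1005 in ΔK14 mock libraries, 271 to 773 and 417 to 1178 in treated libraries, and 105 to 515 and 53.8 to 187 in tumors. Dcn and Postn made up most of it, Pdgfra, the gene of the antigen CD140a, was between 0.502 and 24.7 CPM, and Mfap5 was at 0 in 8 libraries, Fap in 4, Dpt and Twist2 in 2 and Lum in 1. Mock fl/fl replicate 2, with the highest levels of most fibroblast-like collagens, had the highest Pdgfra and a Dcn of 97.2 CPM, while mock ΔK14 replicate 1, with 976 CPM of Dcn, had 28.7 CPM of Col1a1 and 1.89 CPM of Pdgfra. In tumors against treated cells Dcn fell in fl/fl (log2 fold change −5.25, edgeR adjusted p = 0.00121) and in ΔK14 (−8.17, 0.000336), and Pdgfra fell in fl/fl (−1.58, 0.0444) but not in ΔK14 (−0.05, 0.953). In fl/fl 2 of 6 fibroblast markers tested thus fell, where 10.5% of all genes fell, and in ΔK14 1 of 6, where 15.5% did. The other fibroblast markers tested were not called. Against mock skin 1 of 7 tested fell in each genotype, where 1.88% of all genes fell in fl/fl and 7.22% in ΔK14.

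Markers of leukocytes and of further cells were read in the same way. The summed CPM of 5 leukocyte markers (Ptprc, Tyrobp, Lyz2, Cd74 and Cd3e) was 7.10 to 15.9 in fl/fl and 7.58 to 17.3 in ΔK14 mock libraries, 7.84 to 26.5 and 8.61 to 173 in treated libraries, and 11.1 to 31.1 and 56.04 to 84.3 in tumors. Most of it was Cd74, which antigen-presenting cells use to load MHC class II and which stood at 172 CPM in treated ΔK14 replicate 3. Cd74 was the only leukocyte marker tested and rose in ΔK14 tumors against mock skin (log2 fold change 2.58, edgeR adjusted p = 0.0139; 7.05% of all genes rose) but was not called against treated cells (0.07, 0.962). Ptprc, the gene of CD45, stayed at or under 1.51 CPM and was at 0 in 4 libraries, Tyrobp in 8, Cd3e in 13 and Lyz2 in 1.

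The sum of 5 melanocyte markers (Dct, Tyrp1, Pmel, Mlana and Tyr) was 67.2 to 319 CPM in fl/fl and 41.1 to 279 CPM in ΔK14 mock libraries, 52.7 to 130.04 and 51.6 to 366 CPM in treated libraries, and 8.85 to 33.1 and 16.0 to 38.2 CPM in tumors. In ΔK14 tumors against treated cells 3 of 4 tested fell, Dct (−3.43, edgeR adjusted p = 0.0173), Tyrp1 (−3.05, 0.0336) and Tyr (−3.93, 0.0361), where 15.5% of all genes fell. In fl/fl 1 of 4 fell (Dct, −3.55, edgeR adjusted p = 0.0279), where 10.5% of all genes fell. Against mock skin Pmel fell in fl/fl (−1.80, edgeR adjusted p = 0.0493), as 1 of 4 tested, where 1.88% of all genes fell. Dct, Tyrp1, Mlana and Tyr were at 0 in 2 of the fl/fl tumors.

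The sum of 5 mural cell markers (Rgs5, Acta2, Cspg4, Des and Myh11) was 44.0 to 64.4 CPM in mock, 56.1 to 119 CPM in treated and 46.9 to 103 CPM in tumor libraries. Among these, Cspg4 fell in tumors against treated cells in fl/fl (−2.65, edgeR adjusted p = 0.00418) and ΔK14 (−1.68, 0.0147). It was 1 of 3 tested in each genotype, where 10.5% of all genes fell in fl/fl and 15.5% in ΔK14. Myh11 fell in ΔK14 tumors against mock skin (−2.77, edgeR adjusted p = 0.0202), as 1 of 4 tested, where 7.22% of all genes fell. Des was at 0 in 9 libraries.

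The sum of 7 endothelial markers was 10.7 to 41.3 CPM, with Cldn5 and Emcn at 0 in 10 libraries each. Pecam1, the gene of CD31, made up most of it. Pecam1 rose in ΔK14 tumors against treated cells (1.21, edgeR adjusted p = 0.0198), as 1 of 3 endothelial markers tested, where 10.5% of all genes rose. In fl/fl none of 3 was called. The sum of 3 muscle markers stayed at or under 4.58 CPM and that of 2 adipocyte markers at or under 0.328 CPM. The part of RNA carried over from other cells in the collagen values was not tested.

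Among the remaining collagens, Col12a1 (ENSMUSG00000032332, chromosome 9, 79598991 to 79718831, minus strand, GRCm38), a fibril-associated collagen that binds collagen I, rose in ΔK14 tumors. In mock skin, Col12a1 held 48.3, 96.8 and 64.5 CPM in fl/fl and 38.4 and 41.5 CPM in ΔK14. In treated cells it held 198, 136 and 162 CPM in fl/fl and 63.9, 151 and 151 CPM in ΔK14. Tumors held 209, 115 and 125 CPM in fl/fl and 630.0, 509 and 459 CPM in ΔK14 for Col12a1. The 3 ΔK14 tumors were above every other library. The log2 fold change of tumor over treated cells was 2.03 (SE 0.34, edgeR adjusted p = 0.00276) in ΔK14, kept whichever library was left out, and −0.18 (SE 0.27, edgeR adjusted p = 0.649) in fl/fl.

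Col8a1 and Col8a2 encode short chains that form a sheet-like network. Col8a1 had 1.998, 8.25 and 6.67 CPM in fl/fl and 1.62 and 5.05 CPM in ΔK14 in mock skin, 5.65, 5.48 and 2.75 CPM in fl/fl and 2.69, 4.83 and 11.3 CPM in ΔK14 in treated cells and 3.01, 2.75 and 3.93 CPM in fl/fl and 6.93, 49.6 and 26.2 CPM in ΔK14 in tumors. It rose in ΔK14 tumors against treated cells (2.05, SE 0.68, edgeR adjusted p = 0.0429) although the groups overlapped. That call was lost without treated ΔK14 replicate 1 (edgeR adjusted p = 0.0771) or 2 (0.136) or ΔK14 tumor replicate 2 (0.163) or 3 (0.0909), and the log2 fold change ran from 1.34 without ΔK14 tumor replicate 2 to 2.75 without treated ΔK14 replicate 3. Col8a2 had 0.222, 2.75 and 1.74 CPM in fl/fl and 0.271 and 1.80 CPM in ΔK14 in mock skin, 1.85, 6.36 and 2.35 CPM in fl/fl and 0.718, 1.83 and 0.338 CPM in ΔK14 in treated cells and 0, 0 and 0.656 CPM in fl/fl and 0.895, 0.726 and 0.760 CPM in ΔK14 in tumors. It fell in fl/fl tumors (−4.08, SE 1.08, edgeR adjusted p = 0.03), on 2 counts in tumors against 64 in treated cells, a ratio of 17.3 (95% exact interval 4.60 to 146). That call was lost without treated fl/fl replicate 1 (edgeR adjusted p = 0.0684) or 2 (0.0877) or fl/fl tumor replicate 2 (0.101), and the gene did not pass the filter without treated fl/fl replicate 3. Both tumor counts were in replicate 3, and without that library the remaining tumors were at 0, so the fitted value (−7.34, edgeR adjusted p = 0.0461) is no measure of size there. Without fl/fl tumor replicate 2 the log2 fold change was −3.04 and without treated fl/fl replicate 2 it was −3.42.

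Col16a1, a fibril-associated collagen found near the dermal-epidermal junction, fell in fl/fl tumors. Col16a1 had 31.2, 99.6 and 98.5 CPM in fl/fl and 35.5 and 52.6 CPM in ΔK14 in mock skin, 60.3, 58.8 and 75.4 CPM in fl/fl and 30.7, 51.04 and 27.2 CPM in ΔK14 in treated cells and 20.1, 12.8 and 19.7 CPM in fl/fl and 25.3, 45.7 and 37.6 CPM in ΔK14 in tumors. All fl/fl tumors were below all other fl/fl libraries, and the log2 fold change against treated cells was −1.94 (SE 0.25, edgeR adjusted p = 0.00309), kept whichever library was left out, while in ΔK14 it was −0.12 (SE 0.31, edgeR adjusted p = 0.792). Col6a4, a collagen VI relative, had 0, 0.196 and 0 CPM in fl/fl and 0.271 and 0.361 CPM in ΔK14 in mock skin, 0.217, 0.219 and 0.523 CPM in fl/fl and 0.179, 0.914 and 0.169 CPM in ΔK14 in treated cells and 2.51, 0.458 and 0.328 CPM in fl/fl and 2.24, 2.18 and 3.61 CPM in ΔK14 in tumors. It rose in ΔK14 tumors against treated cells (2.39, SE 0.61, edgeR adjusted p = 0.0164), without overlap, with a log2 fold change of 3.71 without treated ΔK14 replicate 2, and did not pass the filter without ΔK14 tumor replicate 3. Col6a6, another relative, was at 0 in all 6 tumors, against 34 counts in the treated and 45 in the mock fl/fl libraries. With a floor of 3 counts over the group of tumors, it was at least 6.13-fold higher in treated and at least 7.11-fold higher in mock fl/fl cells than in fl/fl tumors.

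**Figure D4:**
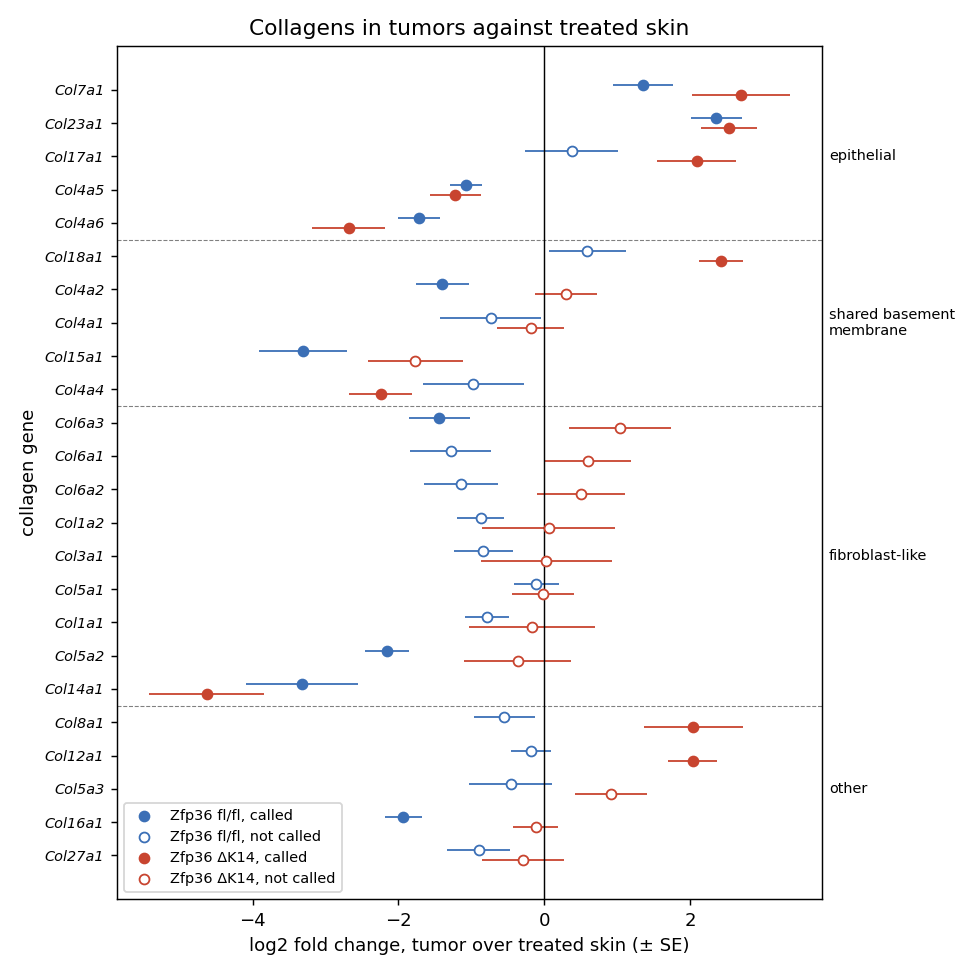
Log2 fold change of tumor over treated cells (points, with bars of 1 SE) of the 24 collagen genes tested in both genotypes, blue for fl/fl and red for ΔK14, with filled points for genes called. Col23a1 and Col7a1 lie above 0 and Col4a5, Col4a6 and Col14a1 below 0 with filled points in both genotypes, and Col12a1 and Col18a1 are filled in ΔK14 alone.

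Tumors were also compared with mock skin, using the same tumor libraries, so these values are not independent of those above. In fl/fl no collagen rose and 5 fell of 25 tested, where 4.11% of all genes were called, 1.88% lower: Col1a1 −2.60 (SE 0.52, edgeR adjusted p = 0.0408), Col1a2 −2.93 (SE 0.62, edgeR adjusted p = 0.0467), Col3a1 −2.81 (SE 0.61, edgeR adjusted p = 0.0493), Col5a2 −2.30 (SE 0.46, edgeR adjusted p = 0.0398) and Col15a1 −4.60 (SE 0.96, edgeR adjusted p = 0.0459). Col15a1 was down to 4 counts in the tumors from 173 in mock cells, a ratio of 20.5 (95% exact interval 7.87 to 76.1). At an unadjusted p under 0.05, 13 of the 25 passed, as did 4038 of all 15394 genes tested. The median log2 fold change was −1.37, against −0.05 over all genes. Tumor values lay above mock values without overlap for 1 collagen and below for 10 (15.5% and 16.9% of all genes). None of the 5 calls was kept when fl/fl tumor replicate 1, 2 or 3 or mock fl/fl replicate 2 or 3 was left out (edgeR adjusted p from 0.0721 to 0.189). Without mock fl/fl replicate 2 the log2 fold changes were −1.90 for Col1a1, −2.02 for Col1a2, −2.06 for Col3a1 and −3.41 for Col15a1, and without fl/fl tumor replicate 2 that of Col3a1 was −3.40. The calls also depended on the fit. A single fit of all libraries did not call Col1a1 (edgeR adjusted p = 0.0714), Col1a2 (0.0532) or Col3a1 (0.0506). Its 9 calls, where 17.6% of all genes were called, were Col5a2 and Col15a1, Col4a5, Col4a6, Col16a1, Col5a3 and Col6a6, all lower, and Col12a1 (1.10, 0.031) and Col6a4 (3.84, 0.0281), higher. With RLE scaling Col3a1 was not called (edgeR adjusted p = 0.051). Without mock fl/fl replicate 1, in contrast, 11 collagens fell, where 21% of all genes were called, the same 5 and Col4a6 (log2 fold change −3.79, edgeR adjusted p = 0.00147), Col16a1 (−2.52, 0.00255), Col4a5 (−2.10, 0.00595), Col5a3 (−3.02, 0.0248), Col6a1 (−2.43, 0.0337) and Col6a6 (edgeR adjusted p = 0.0229, with no count in tumors).

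In ΔK14 tumors against mock skin 3 collagens rose and 3 fell of 27 tested, where 14.3% of all genes were called, 7.05% higher and 7.22% lower. The 3 that rose were Col12a1 3.65 (SE 0.31, edgeR adjusted p = 0.00461), Col18a1 2.83 (SE 0.47, edgeR adjusted p = 0.017) and Col6a4 2.91 (SE 0.70, edgeR adjusted p = 0.0403), the last on 2 counts in mock cells (ratio 8.71, 95% exact interval 2.26 to 74.3). The 3 that fell were Col4a6 −3.71 (SE 0.76, edgeR adjusted p = 0.0276), Col14a1 −2.86 (SE 0.70, edgeR adjusted p = 0.041) and Col19a1 −2.54 (SE 0.63, edgeR adjusted p = 0.0426). The median log2 fold change was 0.44, against −0.06 over all genes, and values did not overlap for 7 collagens in each direction (28.6% and 24.3% of all genes). The Col12a1 call was kept whichever library was left out. That of Col18a1 was lost without ΔK14 tumor replicate 2 (edgeR adjusted p = 0.075) or 3 (0.0657), and that of Col4a6 without ΔK14 tumor replicate 1 (0.103), 2 (0.0953) or 3 (0.0884). Col14a1 was kept without mock ΔK14 replicate 2 alone and otherwise lost (edgeR adjusted p from 0.052 without ΔK14 tumor replicate 1, with a log2 fold change of −3.74, to 0.144 without replicate 3, and 0.0713 without mock ΔK14 replicate 1). Col19a1, a fibril-associated collagen, had 0.555, 1.57 and 0.580 CPM in fl/fl and 3.52 and 3.97 CPM in ΔK14 in mock skin, 0.652, 0.439 and 0.261 CPM in fl/fl and 1.61, 1.31 and 0.169 CPM in ΔK14 in treated cells and 1.51, 0.458 and 3.28 CPM in fl/fl and 0.895, 0.908 and 0.190 CPM in ΔK14 in tumors. Its call was kept without mock ΔK14 replicate 1 alone and otherwise lost (edgeR adjusted p from 0.0659 without mock ΔK14 replicate 2 to 0.111 without ΔK14 tumor replicate 3), and that of Col6a4 was lost or the gene was filtered out whichever library was left out (0.0546 without mock ΔK14 replicate 2, 0.0782 without mock ΔK14 replicate 1). Without mock ΔK14 replicate 1, 5 collagens were called, where 28.1% of all genes were called, with Col4a5 (−2.10, edgeR adjusted p = 0.00992) in addition and Col4a6 at −4.34. Without mock ΔK14 replicate 2 Col4a6 was at −2.30 (edgeR adjusted p = 0.0275). A single fit of all libraries did not call Col14a1 (edgeR adjusted p = 0.0851), Col19a1 (0.0574) or Col6a4 (0.0638), and DESeq2 did not call Col6a4 (DESeq2 adjusted p = 0.0766).

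Treated and mock cells were compared to show what the carcinogen treatment changed outside tumors. With edgeR's quasi-likelihood test no collagen was called of 29 tested in fl/fl, where 0% of all genes were called, or of 26 tested in ΔK14, where 0% of all genes were called. At an unadjusted p under 0.05, 6 collagens passed in fl/fl, as did 913 of all 16601 genes tested. Col14a1 (2.98, SE 0.25, edgeR adjusted p = 0.0585) and Col12a1 (1.26, SE 0.30, edgeR adjusted p = 0.549) had positive fitted log2 fold changes, and all treated fl/fl values of both were above all mock ones. Col1a1 (−1.81, 0.658), Col1a2 (−2.06, 0.736) and Col3a1 (−1.97, 0.652; log2 fold change and edgeR adjusted p) had all treated values below all mock ones without passing the adjustment, and Col23a1 overlapped. Values without overlap made up 5.42% of all genes in the higher and 4.81% in the lower direction. In ΔK14 cells Col12a1 was the only collagen with an unadjusted p under 0.05 (log2 fold change 1.60, SE 0.44, edgeR adjusted p = 0.72), where 763 of all 15891 genes tested had one. Values did not overlap there for 2 collagens in the higher and 1 in the lower direction (7.8% and 8.3% of all genes).

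Other tests made calls between treated and mock fl/fl cells. DESeq2 called 3 collagens, Col14a1, Col12a1 and Col3a1, where 0.711% of all genes were called, and edgeR's exact test called Col14a1, where 0.626% of all genes were called. Without mock fl/fl replicate 1, the library with low Krt14 and high Dcn, the quasi-likelihood test called 13 collagens, where 15.1% of all genes were called. Col14a1 (2.95, edgeR adjusted p = 0.00112) and Col12a1 (1.07, 0.0183) were then higher in treated cells. The 11 that were lower were Col23a1 (−2.57, edgeR adjusted p = 0.00264), Col4a6 (−2.06, 0.00276), Col7a1 (−2.22, 0.00546), Col17a1 (−1.90, 0.0163), Col1a1 (−2.04, 0.0162), Col1a2 (−2.30, 0.0214), Col3a1 (−2.24, 0.0111), Col4a5 (−1.013, 0.0137), Col5a3 (−2.54, 0.0185), Col6a1 (−1.13, 0.0333) and Col20a1 (−1.29, 0.0307).

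The genotypes were compared at each stage to show what the loss of Zfp36 in keratinocytes changed. In tumors the quasi-likelihood test called none of 22 collagens, where 0.0284% of all genes were called (0.0213% higher and 0.00711% lower). An unadjusted p under 0.05 was found for 1975 of all 14067 genes tested and for 6 of the collagens. Of these, Col12a1 (1.71, SE 0.27, edgeR adjusted p = 0.144), Col8a1 (2.96, SE 0.68, edgeR adjusted p = 0.19), Col7a1 (1.41, SE 0.44, edgeR adjusted p = 0.254) and Col16a1 (0.93, SE 0.30, edgeR adjusted p = 0.258) had all 3 ΔK14 tumors above all 3 fl/fl tumors, where 13.6% of all genes did. Col4a6 (−1.65, SE 0.54, edgeR adjusted p = 0.258) had all 3 below, where 4.23% of all genes did, and Col18a1 (1.67, SE 0.58, edgeR adjusted p = 0.275) overlapped. The median log2 fold change of the 22 was 0.85, against −0.02 over all genes. Both edgeR's exact test and DESeq2 called Col12a1 and Col8a1, where each called 2.62% of all genes, and a single fit of all libraries called Col12a1, where 0.668% of all genes were called. Without a low-count filter the quasi-likelihood test called 11 collagens, where 4.27% of all genes were called. That fit used the same libraries with 32605 genes tested, against 14067 with the filter, so its smaller adjusted p-values come with no added libraries. Col12a1 (1.88, edgeR adjusted p = 6.61e-10), Col8a1 (3.14, 1.18e-12), Col18a1 (1.87, 1e-09), Col7a1 (1.59, 3.49e-07), Col6a3 (1.67, 0.000269), Col5a2 (1.68, 0.00152), Col17a1 (1.09, 0.00252), Col3a1 (1.02, 0.0122), Col16a1 (1.11, 0.013) and Col4a2 (1.008, 0.0338) were then higher and Col14a1 (−2.73, 0.00578) lower in ΔK14 tumors.

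**Figure D5:**
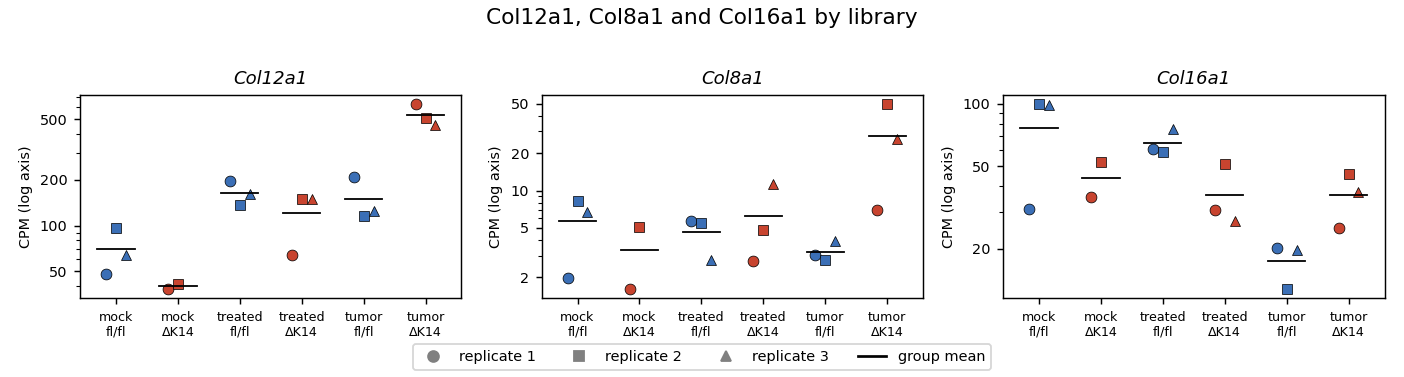
CPM (log axis) of Col12a1, Col8a1 and Col16a1 in each library, with colors, shapes and lines as for the epithelial genes. The 3 ΔK14 tumors lie above the 3 fl/fl tumors for each gene, and for Col12a1 the ΔK14 tumors are above all other libraries.

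Which genes were called between the genotypes in tumors depended on replicate 1 of the fl/fl tumors. Without it the quasi-likelihood test called 10 collagens, where 16.9% of all genes were called. Col17a1 (2.03, edgeR adjusted p = 0.000134), Col12a1 (2.04, 0.000209), Col18a1 (2.72, 0.000545), Col7a1 (1.87, 0.00703), Col8a1 (2.99, 0.0155), Col6a4 (2.52, 0.0196) and Col16a1 (1.08, 0.0285) were then higher in ΔK14. Col20a1 (−2.42, edgeR adjusted p = 0.00582), Col11a2 (−1.86, 0.0113) and Col4a6 (−1.77, 0.0311) were then lower. That library, with the smallest total count, held values within the range of the ΔK14 tumors for Col17a1 and Col18a1.

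Col12a1 and Col8a1 were the members that both edgeR's exact test and DESeq2 called between genotypes in tumors, while other settings called further members. The 3′ untranslated regions of Col12a1 and Col8a1 hold the heptamer TATTTAT, a core of the AU-rich elements that tristetraprolin binds. The first site of each in the longest annotated region of GENCODE vM21 is shown, with the heptamer in capitals. The Col12a1 site is chr9:79600106-79600132 and the Col8a1 site chr16:57626480-57626506, both on the minus strand of GRCm38.
Col12a1: gcaatgcatcTATTTATggttgtgaga
Col8a1: ttacatactgTATTTATttgcatgctt

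Each of these genes has 2 such heptamers. The heptamer was present in 12 of the 44 members, or 27.3%, against 27.6% of 21037 genes, and it was absent from Col17a1, Col7a1, Col23a1, Col4a5, Col4a6, Col18a1, Col1a1 and Col1a2. Of the further members named above as called between genotypes in tumors, Col3a1 and Col5a2 held it. Col16a1, Col6a3, Col4a2, Col14a1, Col6a4, Col20a1 and Col11a2 did not. A match is a description of the sequence, and binding was not measured in these libraries.

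In treated cells no collagen was called between genotypes of 28 tested, where 0.00616% of all genes were called. At an unadjusted p under 0.05, 901 of all 16232 genes tested passed. Among the collagens 9 did, each with a lower fitted level in ΔK14: Col4a2 (−0.82, SE 0.21, edgeR adjusted p = 0.839), Col14a1 (−1.66, SE 0.50, edgeR adjusted p = 0.877), Col16a1 (−0.85, SE 0.26, edgeR adjusted p = 0.897), Col4a5 (−0.52, SE 0.17, edgeR adjusted p = 0.897), Col6a3, Col4a1, Col8a2, Col6a2 and Col6a1. Without overlap, 6 collagens were lower in ΔK14 and none higher (5.93% and 5.77% of all genes). In mock skin none of 28 was called, where 0% of all genes were called. Col19a1 (2.09, SE 0.68, edgeR adjusted p = 1) had an unadjusted p under 0.05, as did 253 of all 15920 genes tested. There, 1 collagen was higher and 6 were lower in ΔK14 without overlap (6.97% and 5.58% of all genes), with 2 libraries against 3. Neither edgeR's exact test nor DESeq2 called a collagen in either stage. With the replicate number as a block, which no source says pairs the mice, the quasi-likelihood test called 7 collagens in mock skin, where 0.691% of all genes were called. Col1a2 (−2.16, edgeR adjusted p = 3.08e-12), Col3a1 (−2.07, 5.27e-12), Col1a1 (−1.70, 3e-06), Col6a3 (−1.75, 0.000221), Col6a1 (−1.64, 0.00719), Col5a1 (−1.14, 0.0344) and Col4a1 (edgeR adjusted p = 0.0283) were then lower in ΔK14. Fl/fl replicate 3 has no ΔK14 library of its number, so these differences rest on 2 pairs, with little left to estimate a spread. These adjusted p-values are therefore no measure of the strength of a genotype difference.

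The difference between the genotypes in the change from treated cells to tumors was tested as an interaction. The quasi-likelihood test called none of 30 collagens, where 0.0118% of all genes were called. An unadjusted p under 0.05 was found for 2243 of all 17017 genes tested and for 8 of the collagens. The smallest p-values of these 8 were those of Col12a1 (2.23, SE 0.46, edgeR adjusted p = 0.152) and Col16a1 (1.85, SE 0.42, edgeR adjusted p = 0.203), with a larger value in ΔK14. DESeq2 called both (Col12a1, DESeq2 adjusted p = 0.00373, and Col16a1, 0.0193), where 1.21% of all genes were called. Without a low-count filter the quasi-likelihood test called 10, where 2.76% of all genes were called, each with a larger value in ΔK14: Col12a1 (2.30, edgeR adjusted p = 1.69e-08), Col18a1 (1.96, 4.18e-06), Col6a3 (2.57, 5.27e-06), Col17a1 (1.81, 4.13e-05), Col16a1 (1.93, 8.98e-05), Col8a1 (2.68, 9.65e-05), Col4a2 (1.78, 0.000709), Col7a1 (1.44, 0.00336), Col5a2 (1.86, 0.0044) and Col6a1 (1.97, 0.0116). The smaller adjusted p-values of that fit, too, come with no added libraries. Without fl/fl tumor replicate 1, 4 collagens were called, where 7.53% of all genes were called: Col18a1 (2.88), Col12a1 (2.54), Col16a1 (1.96) and Col17a1 (2.83; log2 differences). For genes called in 1 genotype alone, whether a difference between the genotypes in this change was called thus depended on the test, the filter and 1 library.

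Genes that modify, export and bind collagen were read from lists. Of 14 tested genes for the modification of collagen chains in the endoplasmic reticulum, 8 rose in ΔK14 tumors against treated cells, where 10.5% of all genes rose, and 4 in fl/fl tumors, where 7.5% did, with none lower. In ΔK14 they included the prolyl hydroxylase subunits P4ha2 (log2 fold change 2.44, edgeR adjusted p = 0.000521), P4ha1 (2.32, 0.000715) and P4hb (1.35, 0.00102) and P3h4, a partner of lysyl hydroxylase (2.32, 0.000521). In fl/fl they were P4ha3 (3.29, edgeR adjusted p = 0.00639), P4hb (1.20, 0.0127), P4ha1 (1.21, 0.0171) and P3h2 (1.13, 0.0311). Against mock skin, 6 of 14 rose in ΔK14 tumors (7.05% of all genes) and 1 (P4ha3) in fl/fl tumors (2.22%).

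Among enzymes and helpers that trim propeptides, 3 of 6 rose and 1 fell in ΔK14 tumors against treated cells, where 10.5% of all genes rose and 15.5% fell. Pcolce2, an enhancer of the trimming enzyme, rose (log2 fold change 4.71, edgeR adjusted p = 0.000214), as did that enzyme, Bmp1 (1.74, 0.00223), and its relative Tll1 (1.35, 0.0313), while Adamts3 fell (−4.15, 0.00581). In fl/fl none of 5 rose, and Adamts3 (−3.15, edgeR adjusted p = 0.013) and Adamts14 (−3.79, 0.0244) fell, where 10.5% of all genes fell. Of the collagen receptors, Itga2 and Itgb1, the subunits of integrin α2β1, rose in both genotypes (7.5% of all genes rose in fl/fl and 10.5% in ΔK14), with log2 fold changes of 1.80 and 1.87 in fl/fl (edgeR adjusted p = 0.00235 and 0.00889; 2 of 7 tested) and 2.79 and 2.97 in ΔK14 (0.00388 and 0.000173), where Mrc2, an uptake receptor for collagen, rose as well (1.57, 0.0182; 3 of 6 tested). Against mock skin, 3 of 6 receptors rose in ΔK14 tumors, where 7.05% of all genes rose, and none of 7 in fl/fl tumors, where 2.22% did. The difference between the genotypes in these counts was not tested. Of the crosslinking enzymes, 1 of 4 fell in fl/fl tumors against treated cells (Loxl1, −3.38, edgeR adjusted p = 0.0201), where 10.5% of all genes fell. None of 3 was called in ΔK14. Among 4 chaperone and export genes, none was called against treated cells. Serpinh1, the collagen chaperone HSP47, rose in ΔK14 tumors against mock skin (1.12, edgeR adjusted p = 0.0353), as 1 of 4 tested, where 7.05% of all genes rose. Between genotypes at any stage, between treated and mock cells and in the interaction, no gene of these lists was called by the quasi-likelihood test.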

How the data were processed

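RNA-seq was done by the authors on RNA of sorted epidermal cells, with libraries of the Ovation SoLo kit read on an Illumina HiSeq. The authors deposited raw counts per Ensembl gene. The submitters' processing notes name Trimmomatic 0.36, STAR 2.5.3, HTSeq 0.9.1, DESeq2 and the build mm10, without their roles. Strand, annotation release and the handling of duplicate reads are not given in the sources used here, so overlapping and antisense genes are uncertain. PCR reads are not independent molecules, and intervals and limits from counts cover counting error only. Deposited lists of the authors' own comparisons were not used.

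Tests on the counts used edgeR 4.0.16 and limma 3.58.1 under R 4.3.3. The study states pairwise comparisons with edgeR, so each comparison used the libraries of its groups alone. Genes passed filterByExpr at its defaults, were scaled by TMM and were tested with the two-sided quasi-likelihood F test, with Benjamini-Hochberg adjustment over all genes tested. Calls required a fold change above 2 and an adjusted p below 0.05. Levels per length used exon lengths of GENCODE vM21 on GRCm38. Identical columns were found by comparing all columns of a group. The quasi-likelihood procedure was run on simulated counts with the same spread for all genes and with changes in well-counted genes alone. That run does not cover genes with few counts or libraries that stand apart from their group.

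Members, classes and lists were chosen with earlier results of these data known. Named with their values were all epithelial and fibroblast-like members and every other member called in any of 10 tests, and of the lists of modifying and binding genes up to 4 in each direction with the smallest p. Of 88 genes in the lists 87 were found. Alternatives replaced the test (edgeR's exact test or DESeq2 1.42.0), TMM (by RLE), the filter (by none, or by a mean count of 10 or more) or the libraries in the fit (all at once, each left out in turn, or identical columns as separate libraries), or added the replicate number as a block. Results of 1 marker list are not reported here, and other experiments of the study were not analyzed here.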

Additional observations from a re-analysis of the deposited data

How the results depend on the processing

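Counts of collagens called depended on the settings as follows, with the share of all genes called under the same setting in parentheses. In fl/fl tumors against mock skin, where 5 were called, edgeR's exact test called 8 (13.4%), DESeq2 8 (14.3%), a single fit of all libraries 9 (17.6%), no low-count filter 12 (7.64%) and a mean count of at least 10 only 2 (3.32%). In ΔK14 tumors against mock skin, where 6 were called, no filter gave 13 (13.1%) and a mean count of at least 10 gave 3 (12.7%). Where none was called, treated against mock fl/fl cells gave 1 with the exact test (0.626%), 3 with DESeq2 (0.711%) and 1 without a filter (0.0883%), and treated against mock ΔK14 cells 1 without a filter (0.654%). Between genotypes, tumors gave 2 with the exact test (2.62%), 2 with DESeq2 (2.62%), 1 with a single fit (0.668%) and 11 without a filter (4.27%), and treated cells 1 without a filter (0.646%). The interaction gave 2 with DESeq2 (1.21%) and 10 without a filter (2.76%). No call of the pairwise or interaction quasi-likelihood tests at the stated settings turned its direction under any setting tried. Calls made under other settings alone were not checked for this.

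With each library left out in turn, the counts ran from 4 (7.21% of all genes called) to 14 (24.3%) in fl/fl tumors against treated cells, with 4 without treated fl/fl replicate 1, 5 without 2 (8.91%), 6 without 3 (9.91%) and 7 without fl/fl tumor replicate 3 (9.98%). They ran from 7 (20.4%, without treated ΔK14 replicate 2) to 12 (29.2%) in ΔK14. In fl/fl tumors against mock skin they ran from 0 (0.181% to 3.65%) to 11 (21%), and in ΔK14 from 1 (0.709% without ΔK14 tumor replicate 2 and 1.51% without 3) to 8 (22%), with 2 without replicate 1 (2.75%). They ran from 0 (0%) to 13 (15.1%) between treated and mock fl/fl cells, from 0 (at most 0.0455%) to 10 (16.9%) between genotypes in tumors and from 0 (at most 0.0334%) to 4 (7.53%) in the interaction. The cause was not tested. In these fits a group of 1 library is assumed to vary like the other.

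Replicate numbers are shared between groups, but no source says that they pair animals, and deviations of same-numbered libraries did not all correlate above 0.1 where there were 3 pairs, so the block is only an alternative. With the replicate block, 3 collagens were called in fl/fl tumors against mock skin (1.59% of all genes), without Col5a2 (edgeR adjusted p = 0.0549) and Col15a1 (0.0728), and 7, all lower in ΔK14, between genotypes in mock skin, where 0.691% of all genes were called. There the correlations of the 2 pairs were 0.829 and 0.64, and the difference between genotypes rests on these pairs alone. The block also did not call Col4a2 (edgeR adjusted p = 0.0692), Col6a3 (0.0514) and Col8a2 (0.0663) in fl/fl tumors against treated cells, or Col14a1 (0.098), Col19a1 (0.129) and Col6a4 (0.146) in ΔK14 tumors against mock skin, where it called Col7a1 (0.0318) and Col8a1 (0.0315).

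Members near the depth limit, such as Col15a1, Col8a2, Col6a4 and Col6a6, rest on few counts. The mock ΔK14 group has n = 2.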
